A study of Mus musculus with 15 samples.

Results

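The spleens of 2 mice whose T-cell leukemia carried the leading number 4 in the title, mice 4-1 and 4-2, were set against those of 5 mice with T-cell leukemia and another leading number. The other mice were 2 and 2-2 (number 2) and 5, 5-1 and 5-3 (number 5). These 7 mice were taken by type label and title from 12 labelled mice on 15 arrays. They gave 8 arrays, because mouse 5-1 was run on 2, which were averaged. All mice, the comparison group included, belonged to a mouse model of Cbx7 overexpression. The labels do not state what the leading number marks, and no mouse without Cbx7 overexpression was analysed here. The age, strain and cell type in which Cbx7 was overexpressed were not stated in the labels. The RNA came from unsorted suspensions of spleen cells. It was amplified as whole transcriptome and hybridised to bead arrays, on which each probe is read from many beads. Each title was taken as 1 animal, so p-values measure the spread between these 7 spleens, treated as independent. Whether mice sharing a leading number are related is not stated, and related mice would not be independent replicates of that number.

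T-cell leukemias arise from immature or mature T cells that have acquired lesions in growth and differentiation genes, and the malignant clones can fill the spleen. Cbx7 is a chromobox protein of polycomb repressive complex 1, which binds methylated histone H3 and keeps target genes silent. Akr1c18 encodes the mouse 20-alpha-hydroxysteroid dehydrogenase, which reduces progesterone to a less active hormone in the ovary. In mouse lymphoid cells its activity has long been used as a T-cell marker.

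The number 4 arrays detected 11278 to 12019 of 25697 probes and the other 6 T-cell arrays 11438 to 12944, with a median of 37 to 40 beads a probe. All levels below are log2 normalised signals, and a difference of 1 is a 2-fold difference. The T-cell label was checked on 9 measured markers. Their mean level was 8.31 in mouse 4-1, 9.30 in mouse 4-2 and 7.19 to 9.38 in the other T-cell mice, against 4.83 to 5.91 in the erythroid leukemias. Mouse 2-2 stood apart. Its Cd3d level, a signalling chain of the T-cell receptor complex, was 8.48 against 10.74 to 10.93 in the rest of its group, and its marker mean of 7.19 was the lowest of the 7. The number 4 mice had Cd3d at 9.70 and 10.47. The Cbx7 probe ILMN_2947234 was above background only in mice 5 and 4-2 among the labelled mice, and its level ran from 4.58 to 5.08 over the T-cell mice. The labels do not say whether this probe reads the overexpressed transcript.

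Akr1c18 rose in the number 4 leukemias. Its probe ILMN_1260323 read 9.27 in mouse 4-1 and 10.61 in mouse 4-2. The other T-cell mice read 4.45 (mouse 2), 4.37 (2-2), 4.44 (5), 4.46 (5-1) and 4.40 (5-3). Both number 4 spleens were therefore far above all 5 others, none of which was above background. The means were 9.94 ± 0.95 (SD, n = 2) and 4.42 ± 0.036 (SD, n = 5). The difference was 5.52 ± 0.35 (SE), with an adjusted p of 0.00195 (limma, Benjamini-Hochberg). The SE pools both groups. The 5 others were at background, so their small SD need not show how the gene varies between animals, and the SE may be too small. Against the lowest detected signal of each array it was at least 32.5-fold higher. An exact two-sided permutation test over the 21 assignments of the mice gave p = 0.0952, which is the smallest p that 2 mice against 5 allow. Akr1c18 was singled out with earlier results of these data known, so its level is a description rather than independent support for a difference between the numbers. It passed the detection filter through the 2 number 4 mice alone, and with no filter the adjusted p was 0.0248. Without mouse 2-2 the difference was 5.50 (adjusted p = 0.0113). With the arrays' order (numbers 1 to 8 or 9 to 16) as a block it was 5.41 (adjusted p = 0.00608). Array numbers 1 to 8 and 9 to 16 hold 1 number 4 mouse each, so a value within either assumes that this mouse varies like the others. Within the first it was 4.85 (adjusted p = 0.0277), and within the second 6.16 (adjusted p = 1). Without background correction it was 3.23 (adjusted p = 0.0707).

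The deposited bead intensities show the same separation before any normalization. In mouse 4-1 the probe read 794 ± 28.8 (bead SE, 45 beads) on an array with a median of 126, and in mouse 4-2 it read 1214.5 ± 32.9 (55 beads) on an array with a median of 109. It lay at the 94.9th percentile of all probes on the first array and at the 98.7th on the second. On the other 6 T-cell arrays the intensity was 99.4 to 116, with detection p-values of 0.44 to 0.89.

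Akr1c18 was near background in the leukemias of other types. The undifferentiated leukemia of mouse 4-3, which shares the leading number, read 5.02 and was just above background, with a detection p-value of 0.0476 and an intensity of 132 ± 5.39 (bead SE). The erythroid leukemias read 4.42 (mouse 2-3), 4.60 (5-5), 4.63 (2-3-2) and 4.43 (2-3-3), none above background. The array of mouse 2-3-2 and a repeat array of mouse 5-5 detected fewer probes (7554 and 7382). Their lowest detected signals were 6.09 and 6.15, so lower levels there could not be told from background. In order of level, mouse 4-2 was followed by 4-1 and, at a distance, by 4-3. The 9 other mice spanned 4.37 to 4.63. There was 1 undifferentiated leukemia, so its value was not tested.

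**Figure D1:**
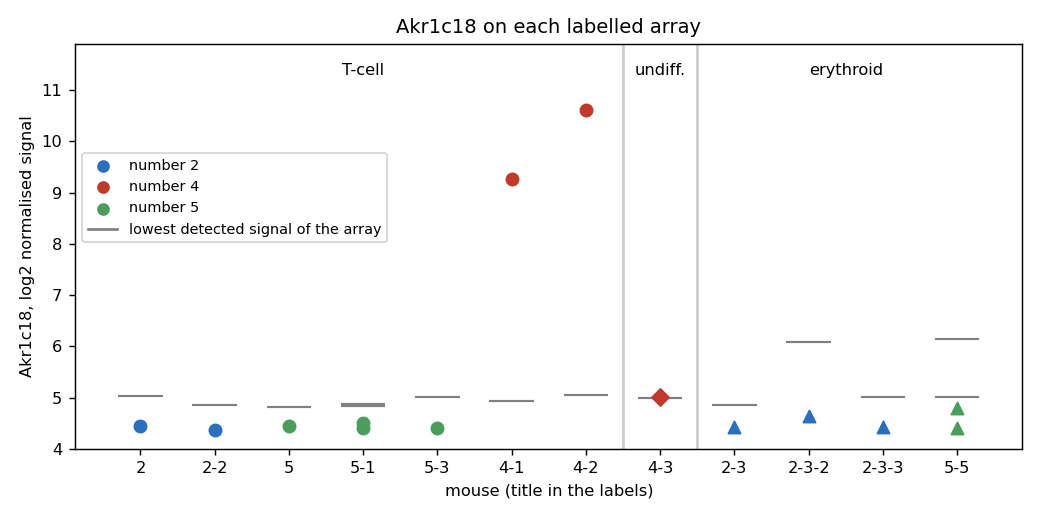
Log2 normalised signal of Akr1c18 (vertical axis) on each labelled array, by mouse (horizontal axis), with colour for the leading number and symbol for the leukemia type. Grey bars mark the lowest signal detected above background on that array; mice 4-1 (9.27) and 4-2 (10.61) stand far above it and mouse 4-3 (5.02) just above it.

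Akr1c18 lies on mouse chromosome 13 in a cluster of aldo-keto reductase genes that use NADPH to reduce steroids and other carbonyl compounds. The window around the RefSeq transcription start of Akr1c18 is shown because this is the one gene of the cluster that rose. Those of Akr1c12 and Akr1c13 are shown because these were the other Akr1c genes above background in both number 4 mice. The windows, taken from RefSeq on GRCm38.p6, run from 250 bases before to 50 after the start, 5′ to 3′ on the gene's strand. They are chr13:4150597-4150896 (minus strand), chr13:4279350-4279649 (minus strand) and chr13:4190937-4191236 (plus strand). Capitals mark the bases at which Akr1c12 and Akr1c13 differ or have no partner in their alignment, 16 in each.
Akr1c18: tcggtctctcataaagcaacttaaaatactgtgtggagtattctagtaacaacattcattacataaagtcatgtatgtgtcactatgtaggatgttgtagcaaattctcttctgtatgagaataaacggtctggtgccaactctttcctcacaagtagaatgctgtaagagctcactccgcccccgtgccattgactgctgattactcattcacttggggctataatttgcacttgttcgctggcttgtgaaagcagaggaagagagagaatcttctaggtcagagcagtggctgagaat
Akr1c12: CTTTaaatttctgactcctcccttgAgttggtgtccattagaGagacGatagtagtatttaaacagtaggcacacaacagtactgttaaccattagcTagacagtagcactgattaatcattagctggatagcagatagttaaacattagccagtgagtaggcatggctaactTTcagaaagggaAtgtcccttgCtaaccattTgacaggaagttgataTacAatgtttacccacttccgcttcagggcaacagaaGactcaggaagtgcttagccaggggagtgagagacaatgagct
Akr1c13: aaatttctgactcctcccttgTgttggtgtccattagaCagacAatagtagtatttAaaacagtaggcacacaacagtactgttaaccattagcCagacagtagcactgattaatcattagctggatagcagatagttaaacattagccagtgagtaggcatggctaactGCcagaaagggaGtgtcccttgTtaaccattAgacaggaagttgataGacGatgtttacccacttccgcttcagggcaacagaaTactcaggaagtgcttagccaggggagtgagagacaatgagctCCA

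The windows of Akr1c12 and Akr1c13 were identical at 284 of 300 bases (94.7%). That of Akr1c18 matched Akr1c12 at 51.3% and Akr1c13 at 52.0% of its bases. Apart from Akr1c12 and Akr1c13, the pairs among the 7 cluster genes with a window ran from 51.3 to 62.7%. Windows of unrelated genes were not aligned, so it is not known whether these shares exceed those of unrelated sequences.

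The 2 near-identical relatives did not separate the numbers. Akr1c12 read 6.73 and 8.03 in mice 4-1 and 4-2, and 7.42, 5.55, 7.64, 4.36 and 5.42 in mice 2, 2-2, 5, 5-1 and 5-3. Akr1c13 read 7.10 and 7.32 against 7.29, 6.35, 8.09, 4.57 and 6.14 in the same order. For Akr1c13 both number 4 mice lay inside the range of the others. For Akr1c12 mouse 4-1 lay inside that range and mouse 4-2 above it, so the groups overlapped. The differences were 1.30 ± 0.89 (SE) and 0.72 ± 0.80 (SE). In limma their unadjusted p-values were 0.180 and 0.397, and each had an adjusted p of 0.993. Because these genes are close in sequence, a probe of one may also bind transcripts of the other. Akr1cl, Akr1c6, Akr1c14, Akr1c19 and Akr1c20 were above background on none of the T-cell arrays, and Akr1c21 on 1.

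Of the genes around Akr1c18 on the chromosome, 23 were measured and 13 tested. None of the 13 passed the threshold, and their smallest unadjusted p was 0.093, for Gdi2, a regulator of Rab recycling, at 0.76. The largest difference among them was the 1.30 of Akr1c12. Of the measured neighbours, 9 were above background on none of the T-cell arrays, among them Akr1c14 on one side of Akr1c18; Akr1c13 lies on the other side.

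**Figure D2:**
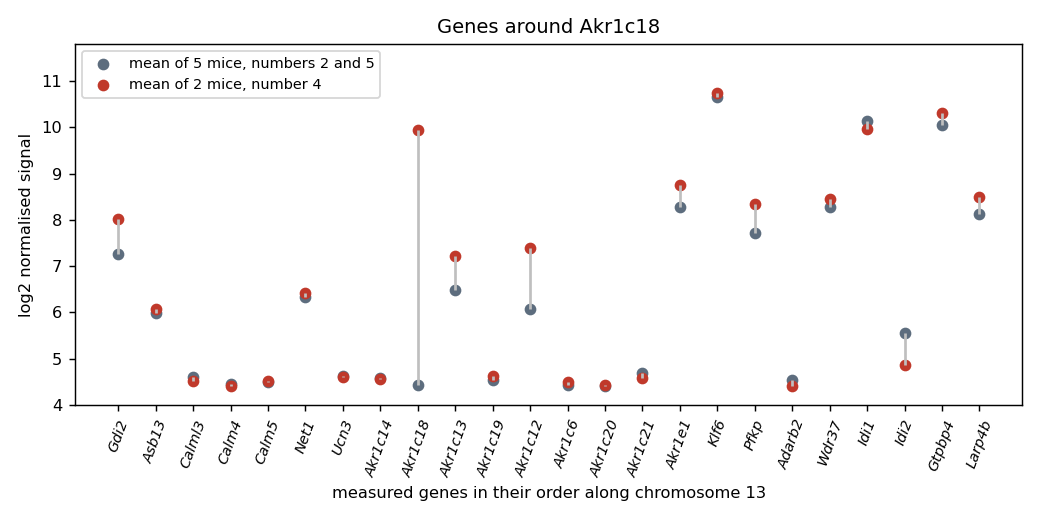
Mean log2 normalised signal (vertical axis) of the measured genes around Akr1c18 in their order along chromosome 13 (horizontal axis), in 2 number 4 mice (red) and 5 mice of numbers 2 and 5 (grey). Akr1c18 goes from 4.42 to 9.94, while no tested neighbour differs by more than 1.30.

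Over all 10420 genes tested, 1 gene rose in the number 4 leukemias (0.0096%) and 0 fell (0%) at an adjusted p under 0.05 in limma. The gene was Akr1c18. The next smallest adjusted p was 0.335, and raising the threshold to 0.1 added no gene. At an unadjusted p under 0.05 there were 223 genes higher (2.14%) and 194 lower (1.86%). The levels of both number 4 mice lay above all 5 others for 483 genes (4.64%) and below them for 425 (4.08%). The median difference over all genes was 0.015, with quartiles of -0.23 and 0.26, and differences of at least 1 were seen for 195 genes higher and 270 lower. Akr1c18 had the largest difference, followed by Mboat2 at 3.88. With 2 mice against 5, a gene had to differ by much more than its spread to pass, and genes that did not pass are given below as values.

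**Figure D3:**
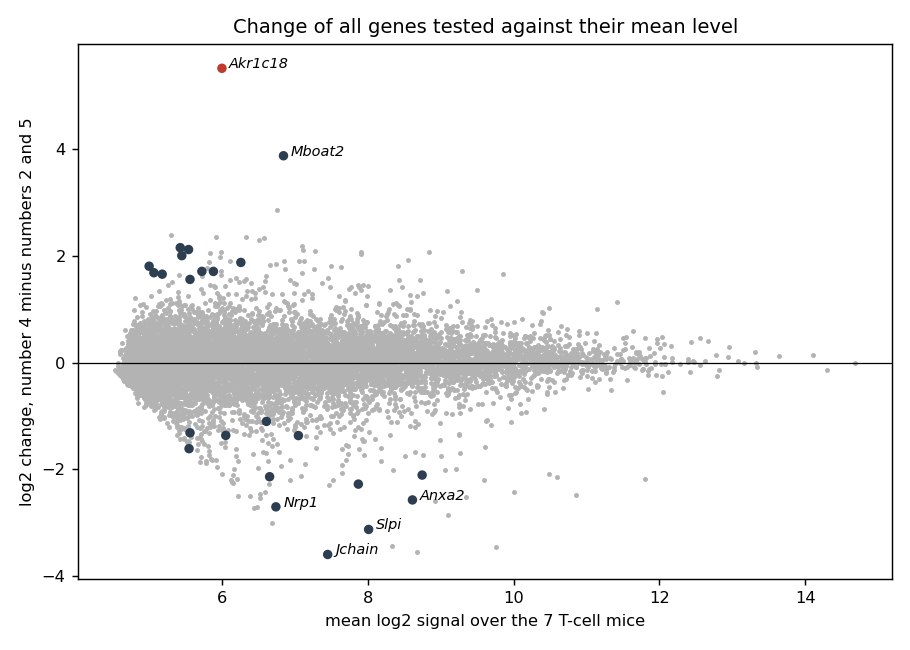
Difference between number 4 and numbers 2 and 5 (log2, vertical axis) against the mean log2 signal over 7 T-cell mice (horizontal axis) for each of 10420 genes. Akr1c18 (red) is the one gene past the threshold; dark points are the other named genes, with Mboat2 at 3.88 and Jchain at -3.60 the farthest in each direction.

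Besides Akr1c18, 11 genes were named on the higher side for the largest moderated t among genes with no overlap, a difference of at least 1 and detection in both number 4 mice. None passed (adjusted p 0.335 to 0.508). Mboat2, an acyltransferase that rebuilds membrane phospholipids, read 9.53 and 9.70 in mice 4-1 and 4-2, and 5.42, 5.00, 4.78, 7.77 and 5.71 in mice 2, 2-2, 5, 5-1 and 5-3. The groups did not overlap, and mouse 5-1 was the nearest. The difference was 3.88 ± 0.73 (SE, adjusted p = 0.489), and the other probes of the gene gave 2.93 and 3.18. Without mouse 5-1 the difference became 4.38 and passed (adjusted p = 0.00899), and Mboat2 passed in no other setting.

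Hmga2, an architectural chromatin protein known from fetal stem cells, read 6.69 and 6.66 in the number 4 mice. Mice 2, 2-2, 5, 5-1 and 5-3 read 5.00, 5.32, 5.47, 4.61 and 5.19, so the number 4 mice were alike and above the rest. The difference was 1.56 ± 0.28 (SE, adjusted p = 0.441). Padi3, an enzyme that turns arginine in proteins into citrulline, read 7.70 and 7.50 against 6.25, 5.25, 5.31, 5.79 and 6.02. Its difference was 1.88 ± 0.33 (SE, adjusted p = 0.441). Ccdc93, part of a complex that recycles endosomal cargo, read 6.97 and 7.24 against 5.24, 5.19, 5.40, 5.71 and 5.44. That difference of 1.71 ± 0.24 (SE) had the lowest adjusted p after Akr1c18, 0.335, but a second Ccdc93 probe gave 0.35.

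Several of these genes were higher in mouse 4-2 than in mouse 4-1, as Akr1c18 was. Ubtd1, a protein with a ubiquitin-like domain, read 6.31 and 7.62 in mice 4-1 and 4-2 and 4.54 to 5.01 in the others. Ttc39c, a protein of tetratricopeptide repeats, read 5.99 and 6.74 against 4.54 to 5.03. Usp43, a deubiquitinating enzyme, read 5.69 and 6.89 and was not above background in the others, at least 2.59-fold lower. Kcnu1, a potassium channel known from sperm, read 5.83 and 6.71, at least 2.55-fold above the others. The reverse order held for Gask1b, a Golgi-associated kinase family member (7.27 and 6.50), Grtp1, a TBC-domain protein (7.57 and 6.54), and Fam131a (7.50 and 6.39). Usp43 and Kcnu1, like Akr1c18, passed the detection filter through the number 4 mice alone. Ubtd1 and Ttc39c were each above background in only 1 of the other mice, so they too needed the number 4 mice to pass it.

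The 12 genes named on the lower side by the same rule did not pass either (adjusted p 0.335 to 0.859). Gmfg, a leukocyte protein that dismantles branched actin, read 7.22 and 7.26 in mice 4-1 and 4-2 and 9.41, 8.84, 9.75, 9.63 and 9.11 in mice 2, 2-2, 5, 5-1 and 5-3. The number 4 mice were alike and lay below all others. Its difference was -2.11 ± 0.30 (SE, adjusted p = 0.335), and a second probe gave -2.29. Anxa2, a calcium-dependent membrane-binding protein, read 6.89 and 6.66 against 10.07, 9.44, 9.62, 8.76 and 8.86. Its difference was -2.57 ± 0.38 (SE, adjusted p = 0.335). Slpi, a secreted inhibitor of leukocyte proteases, read 5.66 and 5.89 against 7.71, 8.39, 9.54, 9.85 and 9.04. The difference of Slpi was -3.13 ± 0.55 (SE, adjusted p = 0.441).

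Jchain, the chain that joins IgM and IgA units in plasma cells, was above background in neither number 4 mouse. It read 4.71 and 5.05 there, and 8.30, 8.76, 9.09, 9.18 and 7.06 in mice 2, 2-2, 5, 5-1 and 5-3. The difference was -3.60 ± 0.55 (SE, adjusted p = 0.335), at least 11.2-fold lower. Jchain passed without mouse 5-3 (-3.95, adjusted p = 0.0273), the mouse nearest the number 4 level, and in no other setting. Nrp1, a semaphorin and growth factor coreceptor found on regulatory T cells, read 5.18 and 4.44 against 7.80, 6.05, 8.07, 7.88 and 7.76. Mouse 2-2 was the nearest. Its difference was -2.70 ± 0.55 (SE, adjusted p = 0.549), with -2.51 from a second probe.

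The remaining genes on the lower side are given by their differences. Arhgap26 differed by -2.14, LOC676420 by -2.28, Rbsn, an early endosome tethering protein, by -1.37, and Stx12, an endosomal membrane fusion protein, by -1.37. Zdhhc7, which attaches palmitate to proteins, differed by -1.10. Reln, a secreted glycoprotein, and Ly86, a partner of a B-cell surface receptor, were above background in neither number 4 mouse, at least 2.02-fold and 1.92-fold lower.

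Mouse 4-3, the undifferentiated leukemia with the same leading number, was nearer the number 4 mean for 5 of the 12 higher genes and 9 of the 12 lower genes. It read 9.04 for Mboat2, 7.98 for Padi3, 7.45 for Grtp1 and 7.52 for Fam131a, close to the number 4 T-cell mice. Some erythroid leukemias of other numbers came near too, with 8.12 for Mboat2 in mouse 5-5, 7.38 for Grtp1 in 2-3-3 and 6.27 for Fam131a in 2-3-2. For Hmga2 it read 4.58 and for Ubtd1 4.60, as low as the other T-cell mice. On the lower side it read 5.69 for Gmfg and 4.78 for Anxa2, below both number 4 T-cell mice, and 6.61 for Jchain, between the groups. Gmfg was also low in the erythroid mice 2-3-2 (4.96) and 2-3-3 (6.91), the first under the lowest detected signal of its array (6.09). The erythroid mice 2-3, 2-3-2, 2-3-3 and 5-5 were nearer the number 4 mean for 1, 2, 1 and 1 of the 12 higher genes and for 4, 7, 9 and 7 of the 12 lower genes. Nearness on the lower side was thus as frequent in mouse 2-3-3 as in mouse 4-3. The counts of mice 2-3-2 and 5-5 draw on the arrays that detected fewer probes. These values come from single spleens of other leukemia types and were not tested.

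**Figure D4:**
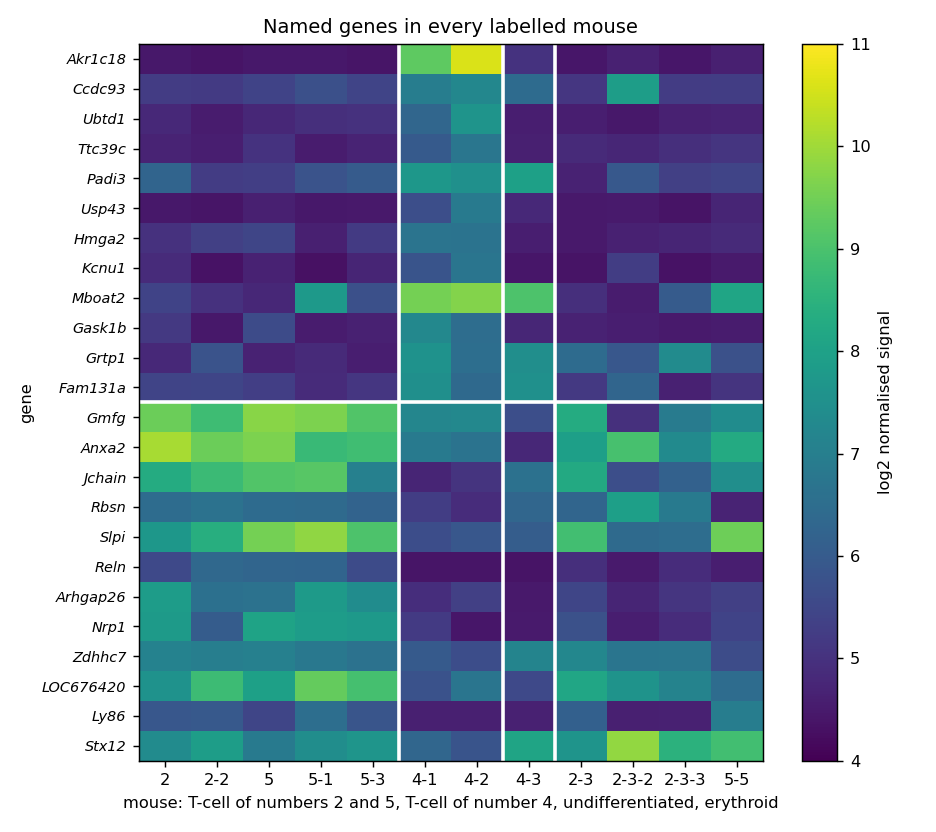
Log2 normalised signal (colour) of the 24 named genes (rows: 12 higher, then 12 lower) in each of 12 labelled mice (columns, with white lines around mice 4-1 and 4-2 and around mouse 4-3). Akr1c18 is bright in 2 mice and Mboat2 also in mice 4-3 (9.04) and 5-5 (8.12). Gmfg, Anxa2 and Slpi are dim in all 3 mice of number 4. Gmfg (4.96 and 6.91) and Slpi (6.41 and 6.49) are also dim in the erythroid mice 2-3-2 and 2-3-3, and Gmfg in 5-5 (7.40).

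Markers of other cell types were lower on average in the number 4 mice, but 8 of 10 lists overlapped between the groups. All 10 lists of such markers had a median difference below 0, against 0.015 over all genes. Of 116 tested markers, 93 were lower on average in the number 4 mice. No marker passed. In an unsorted spleen, fewer cells of a type and less RNA per cell cannot be told apart. The part of these cells in the differences of the genes above was not tested. With the erythroid mean as a covariate, Akr1c18 differed by 5.29 (limma, adjusted p = 0.00324). This fit was run as an alternative setting and does not measure that part.

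The mean of 7 plasma cell markers was 5.09 and 5.18 in mice 4-1 and 4-2 and 5.76 to 6.23 in the others, with no overlap, and the list's median was -0.57. Irf4, a transcription factor of plasma cells and activated T cells, was above background in neither number 4 mouse, at 4.80 and 4.96 against 5.01 to 6.59. The mean of 7 NK and cytotoxic markers was 5.98 and 6.18 against 6.32 to 7.82, also with no overlap, with a median of -0.40. Ccl5, a chemokine of cytotoxic cells, was above background in neither number 4 mouse and read 4.78 to 10.06 in the others. These were the lists without overlap among the 11. Of all genes tested, 4.08% lay below the others in this way, and the list means were not tested.

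Granulocyte markers had the lowest median, -1.50 over 13 genes, and their mean was 5.10 and 5.39 in the number 4 mice. It was 7.39 and 9.26 in mice 2 and 2-2 but 5.24 to 5.66 in the number 5 mice, which overlapped with number 4. S100a9, an alarmin of neutrophils, differed by -3.54. Ngp, a neutrophil granule protein, was above background in neither number 4 mouse and at least 4.81-fold lower. The monocyte and macrophage list (20 genes) had a median of -0.75 and overlapped, at 5.97 and 5.09 against 5.45 to 7.51. Within it Spic, the regulator of red pulp macrophages, was above background in neither number 4 mouse and at least 2.18-fold lower. Axl, a receptor for dying cells, differed by -1.05.

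Erythroid markers split the number 4 mice themselves. Their mean over 22 genes was 7.69 in mouse 4-1 and 5.12 in mouse 4-2, against 6.07 to 8.88 in the others, with a median difference of -0.92. Slc4a1, the anion exchanger of red cells, read 9.27 and 5.29 in mice 4-1 and 4-2 against 8.73 to 12.28. Hba-a1, an alpha globin, read 11.54 and 6.62 against 9.81 to 12.42. Akr1c18 was higher in the mouse with the lower erythroid mean.

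The remaining lists overlapped between the groups. B-cell markers (10 genes, median -0.57) had means of 5.58 and 5.92 against 5.47 to 6.97. Cd79b, a B-cell receptor chain, read 4.47 and 5.58 in mice 4-1 and 4-2 and 5.83 to 8.40 in the others. Ms4a1, Pax5 and Cr2, which define B cells, did not pass the detection filter. MHC class II and dendritic cell genes had a median of -0.40, mast cell and basophil genes -0.28, megakaryocyte genes -0.20 and stromal genes -0.04. H2-Ab1, an MHC class II chain, read 6.47 in mouse 4-1 and 9.10 in mouse 4-2 against 8.65 to 10.43. Cpa3, a mast cell protease, was above background in neither number 4 mouse and at least 4.67-fold lower. Some members of each list were higher on average. They were 4 of 10 B-cell, 3 of 11 MHC class II and dendritic cell and 2 of 9 mast cell and basophil markers. Of the megakaryocyte and stromal markers, 4 of 11 and 2 of 6 were. Among them Btk (B cell) differed by 0.69, Cma1 (mast cell) by 0.85 and Gp5 (megakaryocyte) by 1.55, all with overlap.

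**Figure D5:**
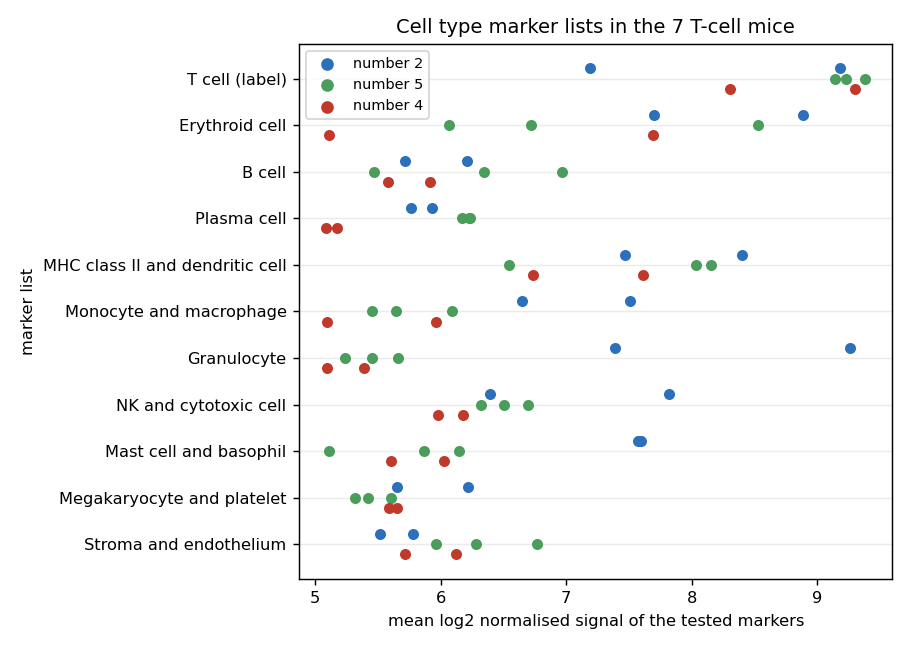
Mean log2 normalised signal (horizontal axis) of the tested markers of 11 cell types (rows) in each of 7 T-cell mice, coloured by leading number and set apart vertically for legibility. The number 4 mice lie below all others for plasma cell and for NK and cytotoxic markers, and far apart from each other for erythroid markers (5.12 and 7.69).

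The T-cell genes themselves gave no member past the threshold. Counts of members without overlap are set against the 4.64% of all genes above and 4.08% below the others. The 22 tested genes of the T-cell receptor and its proximal signalling had a median difference of 0.10, and 1 lay below the others without overlap, a share near that of all genes. It was Ptpn22, a phosphatase that dampens receptor signals (-0.83). Thymocyte stage genes (10) had a median of -0.06. Rag1, Rag2, Dntt and Ptcra, which mark receptor rearrangement in the thymus, did not pass the detection filter. T-cell transcription factors (15) had a median of 0.21, genes of T-cell leukemia (21) 0.17, and Notch receptors and targets (16) 0.06. None of these 3 lists had a member without overlap.

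The 21 genes of mature and activated T cells had a median of 0.09, with 12 higher and 9 lower on average, and 2 below the others without overlap against 4.08% of all genes. Ctla4, an inhibitory receptor of activated and regulatory T cells, was one of them at -1.50. Cd40lg, the helper T-cell ligand of CD40, and Ccr4, a chemokine receptor of helper and regulatory T cells, differed the other way at 1.62 and 1.42 and overlapped. Each had an adjusted p of 0.993.

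In the list of Akr1c and steroid genes, 19 were tested, 1 passed (Akr1c18) and the median was 0.20. Hsd17b10 and Hsd17b12, dehydrogenases of fatty acid and steroid metabolism, lay above the others without overlap at 0.89 and 0.86. Nr3c1, the glucocorticoid receptor, lay below at -1.21. It read 6.10 and 6.17 in mice 4-1 and 4-2 and 6.82 to 8.41 in the others. The 14 genes of the glucocorticoid response had the lowest median of the 22 gene lists, -0.40, with 4 members higher on average and 10 lower. Fkbp5, a chaperone partner of that receptor and a classical target, differed by -1.37, and Sgk1, a kinase that it induces, by 1.34, each with an adjusted p of 0.993. Among 28 cytokine receptor and Stat5 genes (median 0.03), Pim3, a survival kinase, lay above at 1.25 (adjusted p = 0.987). It read 9.59 and 9.56 against 7.80 to 8.99. Il7r, the receptor of interleukin 7, differed by -1.17 with overlap.

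The genes of the Cbx7 complex and its known targets did not pass. Polycomb complex 1 genes (17) had a median of 0.04, with 2 above and 2 below the others without overlap, against 4.64% and 4.08% of all genes. Above were Pcgf3 (0.61), a ring finger subunit of variant complexes, and Cbx2 (0.45), a chromobox paralog of Cbx7. Below were Pcgf5 (-0.85), also a variant subunit, and Phc2 (-0.49), a polyhomeotic subunit. Polycomb complex 2 genes (9) had a median of -0.04. Of 6 tested CDK inhibitors, Cdkn2b, a known polycomb target, differed by 1.31 (unadjusted p = 0.028) and overlapped. Cdkn2d and Cdkn1b lay below the others at -0.58 and -0.53. Cdkn2a, the best known target of Cbx7, did not pass the detection filter. Of 19 genes of p53 and its targets (median 0.10), Trp53inp1 and Btg2, which restrain growth, lay below the others at -0.94 and -0.84.

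Genes of DNA replication (28, median -0.21) and mitosis (23, median -0.13) had no member without overlap, against 4.64% of all genes above and 4.08% below. Of the replication genes, 6 were higher on average and 22 lower. Mcm3, a subunit of the replicative helicase, differed by 0.97, while Rfc3 and Tk1 of the same list differed by -0.95 and -0.83. The interferon response (21) had a median of -0.34 with 18 of its members lower on average. Its Rsad2, an antiviral enzyme, differed by -3.44 and overlapped, reading 6.98 and 4.77 against 6.28 to 11.07. The Bcl2 family (12) had a median of -0.34, in which Bcl2l11, a cell death inducer, differed by -1.24. Stem and progenitor genes (14) had a median of -0.04, with Hmga2 above the others. Flt3, a progenitor receptor, was above background in neither number 4 mouse, at least 1.81-fold lower and with overlap. Chemokines and receptors (16) had a median of -0.09, cholesterol synthesis genes (17) 0.02, glycolysis genes (16) 0.05 and immediate early genes (16) 0.22. Lss, a sterol cyclase, lay above the others at 0.83.

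The comparison group was then split into its numbers. The contrasts share mice, so their calls are not independent. Number 4 minus number 2 gave 1 gene higher (0.0096%) and 6 lower (0.0576%), and number 4 minus number 5 gave 1 higher (0.0096%) and 0 lower (0%), in limma with Benjamini-Hochberg adjustment. Akr1c18 was the gene higher in both, by 5.53 (adjusted p = 0.0222) and 5.51 (adjusted p = 0.0190). Number 5 minus number 2 gave 0 higher (0%) and 4 lower (0.0384%), with 345 genes at an unadjusted p under 0.05, and Akr1c18 differed by 0.02 (adjusted p = 0.998). Of the 6 genes lower than in number 2, 4 were above background in neither number 4 mouse. They were Mcpt8, a basophil protease (at least 34.7-fold lower), Prg2, the eosinophil major basic protein (at least 25.6-fold), Gcnt2, a glycan-branching enzyme (at least 12.7-fold), and LOC100044439 (at least 5.00-fold). The others were Ccl9, a myeloid chemokine (-3.13), and Clec4a1, a myeloid lectin (-2.77). Mcpt8 read 10.42 and 9.80 in mice 2 and 2-2, and 4.40 and 4.48 in mice 4-1 and 4-2. In mice 5, 5-1 and 5-3 it read 4.45, 5.59 and 4.43, so the number 2 mice were the ones that stood out. Mcpt8, Gcnt2, Ccl9 and Clec4a1 were also the 4 genes lower in number 5 than in number 2. Prg2 and LOC100044439 were not called there. These counts rest on single mice. Without mouse 2 they became 23 and 22 lower, and without mouse 5, 4-1, 4-2, 2-2 or 5-3 in turn both became 0. The genes higher became 0 to 2 in number 4 minus number 2 and in number 4 minus number 5 when 1 mouse was left out. They were 0 without mouse 5, 2-2, 4-2 or 5-3 in the first and without mouse 2, 5, 2-2, 5-1 or 5-3 in the second.

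The number 4 mice were no more alike than other pairs. The Pearson correlation of mice 4-1 and 4-2 over the tested genes was 0.905, the 10th of 21 pairs of T-cell mice, which ran from 0.816 (mice 2-2 and 5-3) to 0.964 (mice 2 and 5) with a median of 0.904. Between mice 4-1 and 4-2, 1398 genes (13.4%) differed by at least 2-fold, against 302 (2.90%) between the arrays of mouse 5-1. The highest correlation of mouse 4-1 was with mouse 2 (0.918) and that of mouse 4-2 with mouse 5-3 (0.929). These correlations are across genes, which are not independent replicates.

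The genes whose level followed Akr1c18 most closely over the 12 labelled mice were Usp43 (Pearson r = 0.969), Ubtd1 (0.964), Rem1 (0.960), Ttc39c (0.954), Kcnu1 (0.916), Prss21 (0.914), Marveld3 (0.904) and Lgi1 (0.902). They were taken as the 8 highest of all tested genes, and each r rests mainly on mice 4-1 and 4-2. Rem1, a Ras-like GTPase, read 5.26 in mouse 4-1 and 6.10 in mouse 4-2, and 4.33 to 4.64 in the other 10 mice. Prss21, a serine protease known from testis, read 4.99 and 5.23 against 4.35 to 4.69. Marveld3, a tight junction protein, read 5.07 and 5.90 against 4.44 to 4.96, and Lgi1, a secreted neuronal protein, 5.18 and 5.62 against 4.48 to 4.84. Mouse 4-2 was above mouse 4-1 for each of the 8, an order that the choice by correlation favours.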

How the data were processed

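Gene expression in mouse spleen was measured on bead arrays. Per the labels' protocols, RNA was isolated on RNeasy columns and amplified with a NuGEN kit. The authors deposited a mean intensity, a bead standard error, a bead number and detection p-values for 25697 probes on each of 15 arrays, not normalized between arrays. They also deposited log2 values for the same arrays, made with limma and R 3.0.2 per the submitters' processing notes; these correlated with the values used here at 0.99998 or above and served as an alternative.

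Here, limma 3.58.1 (R 4.3.3) turned the intensities into log2 values by its neqc function (background from detection p-values, offset 16, quantile normalization over 15 arrays). The 2 arrays of mouse 5-1 were averaged. Probes with a detection p under 0.05 in at least 2 of 7 T-cell mice were kept (14307), and the probe with the highest mean stood for a gene (10420 genes, 2649 with several probes). lmFit and eBayes compared 2 with 5 mice, two-sided, with Benjamini-Hochberg adjustment and a threshold of 0.05. A second model fitted the 3 leading numbers. Only the comparison of 2 with 5 mice was tried on simulated data with known changes, and its mean estimates came close to them. A gene above background in no mouse of a group has only a bound there, taken from the lowest detected signal of each array. The number of arrays limits the precision.

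Symbols were updated through a RefSeq table of GRCm38.p6, also used for gene order: 20733 probes had a current symbol, 3677 were renamed, 226 kept the file's symbol and 1061 had no match. The members and lists were chosen with earlier results of these data known. Named genes were those past the threshold, then up to 12 a direction by moderated t among genes with no overlap, a difference of at least 1 and detection throughout the higher group. To these were added list members by moderated t, Akr1c relatives, and the 8 genes most correlated with Akr1c18. Genes called when the numbers were split or a mouse was left out, Cbx2 and Phc2 were named after their values were seen. The array with no type label entered no comparison. The values of 1 list member are not reported here.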

Additional observations from a re-analysis of the deposited data

Results flagged for a closer look

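Of 80 named genes, 5 had 1 mouse far from the other 4 in the group of numbers 2 and 5, by a gap of more than 0.71 of the group's range. Chance flags about 1 group in 20. In mouse 2-2, Cd3d read 8.48 against 10.74 to 10.93 in the others and Thy1, a T-cell surface protein, 8.97 against 10.64 to 11.20. The same mouse read 6.05 for Nrp1 against 7.76 to 8.07, and 5.79 for Grtp1 against 4.58 to 4.85. In mouse 5-3, Hsd17b10 read 7.42 against 8.31 to 8.66. The number 4 group holds 2 mice and could not be checked this way.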

How the results depend on the processing

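No paired analysis was possible because the repeat numbers in the titles mark 2 arrays of 1 mouse, and nothing in the labels pairs mice across leading numbers. Of 28 other settings, 26 gave a value for Akr1c18 that could be set against the reported one. It was 3.23 to 6.19, with adjusted p from 1.35e-05 to 1, and 24 passed. It did not pass without background correction (3.23) or within array numbers 9 to 16 (6.16), where 0 genes were called higher. Array numbers 1 to 8, where it passed, also hold 1 number 4 mouse. It was not tested where detection on every T-cell array was required, and there 0 genes were higher for number 4 against the others, 0 higher and 0 lower against number 2, 0 higher and 1 lower against number 5, and 0 lower for number 5 minus number 2. Median scaling moved the median of all genes to -0.11 and left 1 gene lower in number 4 minus number 2 and 1 in number 5 minus number 2. Leaving out 1 mouse gave 4.84 to 6.19 for Akr1c18, 1 to 2 genes higher and 0 to 1 lower. The additions were Mboat2 without mouse 5-1, LOC677317 without 4-2 and Jchain without 5-3. For number 4 minus number 2 it gave 0 to 2 higher and 0 to 23 lower, for number 4 minus number 5 0 to 2 higher, and for number 5 minus number 2 0 to 22 lower. A lone mouse was then assumed to vary like the others. Reversed values were Cbx7 within array numbers 1 to 8 (-0.074) and without mouse 4-2 (-0.028 to 0.31 without 1 mouse), Cd3d without 4-1 (-0.72 to 0.13), LOC677317 without 4-1 (-0.087 to 4.87), and Ccl9 (0.29) and Clec4a1 (0.12) within array numbers 9 to 16. Over the 79 other named genes, 2066 of 2075 values kept direction and side of the threshold, and 46 of 891 list medians moved. The causes were not tested.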

Other observations

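The number 4 leukemias differed from each other in genes chosen here after their values were seen, with 1 mouse on each side and no test. Col5a1, a fibrillar collagen chain, read 10.94 in mouse 4-1 and 4.53 in mouse 4-2, and P2ry1, a nucleotide receptor, 10.26 and 4.59. Aqp1, the water channel of red cells, read 11.64 and 6.33. In the other direction Ccr6, a chemokine receptor of lymphocytes, read 4.50 in mouse 4-1 and 8.23 in mouse 4-2, Il4i1, a secreted amino acid oxidase, 5.13 and 8.91, and Acrbp 4.81 and 8.79. Pou2af1, a lymphoid transcription coactivator, read 6.47 and 10.06.

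LOC677317 read 9.49 in mouse 4-1 and 8.88 in mouse 4-3 and 4.36 to 5.16 in the other 10 labelled mice, mouse 4-2 (4.53) included. It passed when mouse 4-2 was left out (4.87, adjusted p = 0.0222, limma with 1 number 4 mouse assumed to vary like the others).

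The array with neither a mouse nor a leukemia type in its labels read 4.48 for Akr1c18, not above background, with a detection p-value of 0.58.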
